A study of Caenorhabditis elegans with 29 samples.

Results

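Small nucleolar RNA (snoRNA) genes were followed through gonads of Caenorhabditis elegans depleted of P granules, which are condensates of RNA and protein in germ cells. A gene was included if the deposited table typed it as snoRNA and its average reached 5 normalized reads in at least 1 of the 7 groups of the RNAi strain. This gave 89 of the 138 snoRNA genes, in a table of 45627 genes. The members were thus selected on levels in the RNAi strain, and the 8 wild-type and mutant libraries were not used for that choice.

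All worms were at 24 °C. The RNAi strain DP132 carries the chromosome IV insertion edIs6, which holds unc-119p::unc-119::gfp and rol-6, in every group, controls included. The reporter is driven by the neuronal unc-119 promoter. Mothers and offspring were fed empty vector (control) or double-stranded RNA against 4 genes of P-granule proteins, namely pgl-3, pgl-1, glh-4 and glh-1 (RNAi). Offspring gonads were dissected from fourth-stage (L4) larvae and from Day 1 and Day 2 adults, with 3 libraries in each of the 7 groups, and on Day 2 RNAi gonads with visible GFP were collected apart from those without. Only gonads without GFP are named in the labels of the L4 and Day 1 RNAi groups. The Day 1 groups without RNAi were wild type (strain SS1174, n = 3), glh-1(gk100) (SS0804, n = 2) and the double mutant of strain SS0002, pgl-1(ct131) him-3(e1147) (n = 3). Each library pooled many gonads, adult RNAi gonads came only from sterile worms, and stunted RNAi gonads were collected whole while others were cut at the bend.

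SnoRNAs are short nuclear RNAs that guide the modification of other RNAs, mainly ribosomal RNA, by base pairing. Box C/D snoRNAs direct ribose methylation by fibrillarin, box H/ACA snoRNAs direct pseudouridine formation by dyskerin, and a few take part in cutting the ribosomal RNA precursor. In worms many lie in introns of protein-coding genes and are released from the spliced intron, so host gene transcription supplies them, whereas others have promoters of their own. Ribosome production is high in the germ line, where oocytes are stocked with ribosomes.

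Libraries held 1027223 to 9079321 reads on genes, and the members took 0.178 to 1.17 percent of them. Libraries of a group are named a to c from the deepest to the shallowest, because the table does not number them. The highest share belonged to wild-type library b, whose snRNA share was 0.564 percent against 0.128 and 0.0652 percent in the other wild-type libraries, so it stands apart and touches every comparison with wild type. Transcripts of pgl-1 were at 1885 to 2648 normalized reads in control libraries and at 4.36 to 161 in RNAi libraries. In pgl-1(ct131) him-3(e1147) they were at 122 to 308. Transcripts of him-3, which was not a target of the RNAi, were also lower, at 367 to 532 in control and 2.86 to 78.3 in RNAi libraries. The cause was not tested. In glh-1(gk100), glh-1 transcripts stood at 1942 and 2311, not below the 954 to 2218 of wild type, so the gene's RNA does not check that label. The 4 gonad markers cgh-1, glp-1, rme-2 and lim-7 were present in every library. Their sum was 22697 to 23802 normalized reads in Day 2 controls, 8091 to 9421 in Day 2 GFP-negative and 4096 to 5229 in Day 2 GFP-positive RNAi, while lim-7, of the gonadal sheath, went the other way, from 2.09 to 4.98 in Day 2 controls up to 93.7 to 105 and 111 to 135. The 3 somatic markers unc-54 (muscle), vit-2 (intestine) and rol-6 (cuticle) overlapped at L4 (summed 7814 to 40486 normalized reads in control and 12201 to 23867 in RNAi) and were higher in adult RNAi than in adult controls, as given with those comparisons. The transgene also carries rol-6, and rol-6 was at 0 in all 3 wild-type libraries. In bulk gonads, fewer cells of a type and less RNA per cell cannot be told apart, and the part of somatic RNA in the results was not tested.

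The members differed widely in level. Averaged over the 7 RNAi-strain groups, 3 members reached 1000 normalized reads, 25 reached 100 and 53 reached 10. The highest member held 17.9 percent of the summed level and the 10 highest held 66.5 percent. Annotated lengths ran from 59 to 226 bases with a median of 129. The 28 members shorter than 100 bases had a median level of 5.91 and a highest level of 183 normalized reads, against a median of 66.1 and a highest of 2520 in the 61 longer ones. These levels are not per length, and very short RNAs may be lost when libraries are prepared, which was not tested.

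Of the 89 members, 60 lie within another gene on the same strand, here called the host, and 29 do not. Protein-coding genes were taken first as hosts, and snoRNA and piRNA genes were not taken. The 60 have 48 different hosts, of which 11 hold more than 1 member. A set of 16 lies in 11 hosts taken as ribosomal protein genes by name alone, and 44 lie in other hosts. The names were rpl, rps or ubl-1, which encodes a ubiquitin-like fusion with a ribosomal protein. Hosts without such a name, Y37E3.8 among them, were counted as other hosts with no check of what they encode. These classes were set after levels had been seen, and counts by class describe the members only. Of the 29 without host, 18 lie outside other genes, and 11 lie within a gene on the other strand or overlap a gene end. The library kit does not mark strand, so reads on a snoRNA can also come from an unspliced host or an opposite transcript, and 10 members overlap an exon of another gene.

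Averages near the minimum of 5 decided membership for a few genes. Just above it were T06C12.16 at 5.05, smy-3 at 5.08 and C08D8.3 at 5.16, and just below it were C04G6.12 at 4.75, C03B8.5 at 4.74 and C16D9.11 at 4.64. All 7 groups passed the minimum in 55 members, and 8 members passed in 1 group only. Of those 8, ZK265.10 reached 9.06 in L4 RNAi, B0393.10 reached 7.66 and Y62F5A.11 6.74 in Day 2 GFP-positive RNAi, R151.13 in rpl-6 reached 5.94 in L4 RNAi and T06D8.11 in plpr-1 reached 5.58 in Day 2 GFP-negative RNAi. A member that entered through 1 high group had to differ between groups, so its contrast shows the rule and nothing else.

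The member with the highest level was Y24D9A.9 (221 bases, chromosome IV), which lies in rpl-7A, a gene for a large-subunit ribosomal protein. It gave 2453, 3150.4 and 2306 normalized reads in the L4 control libraries and 1829, 1568 and 1511 in L4 RNAi. On Day 1 it gave 2338, 2662 and 2607 in control and 903, 1730.2 and 1623 in RNAi. On Day 2 it gave 5414, 4943 and 4664 in control, 2419, 1594 and 1283 in GFP-negative RNAi and 2103, 3062 and 2749.8 in GFP-positive RNAi. Every RNAi library lay below every control library of its stage. Per length it stood at 22655 normalized reads per kilobase in Day 2 controls, 2.75 times its host. In the authors' deposited table Y24D9A.9 fell by 0.90 on the log2 scale on Day 1 (adjusted p = 6.31e-05), by 1.68 in Day 2 GFP-negative gonads (adjusted p = 1.63e-14) and by 1.38 in Day 2 GFP-positive gonads (adjusted p = 1.36e-15), and at L4 it did not pass (log2 change -0.59, adjusted p = 0.768).

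The second highest, Y74C9A.6 (163 bases, chromosome I), has no host on its strand and went another way. Its libraries gave 931, 974 and 616 normalized reads in Day 1 control and 1069, 1109 and 1575 in Day 1 RNAi. They gave 2139, 2305 and 1500.5 in Day 2 control, 4083, 2348 and 1716 in GFP-negative RNAi and 2926, 3632 and 3791 in GFP-positive RNAi. The Day 1 RNAi libraries and the GFP-positive libraries lay above all their controls, and the GFP-negative ones overlapped them. None of these differences passed in the authors' deposited table (log2 change 0.47, adjusted p = 0.064 on Day 1, and 0.33, adjusted p = 0.113 in GFP-positive gonads). Y75B12B.12 (118 bases), also without host, overlapped its controls on both days, at 798, 597 and 431 in Day 1 control, 996, 588 and 868 in Day 1 RNAi, 1168, 1261 and 702 in Day 2 control, 784, 912 and 978 in GFP-negative and 601, 934 and 1778 in GFP-positive RNAi.

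F17C11.15 (218 bases) lies in eef-1G, which encodes a subunit of the translation elongation factor 1 complex. It gave 1253, 1130.1 and 743 normalized reads in Day 1 control and 309.8, 467 and 326 in Day 1 RNAi. It gave 1803, 1656 and 1192 in Day 2 control, 825, 492 and 307 in GFP-negative and 878, 1136 and 776 in GFP-positive RNAi. No RNAi library reached its controls on either day, whereas at L4 the groups overlapped, at 1009.8, 767 and 528 in control and 553, 597 and 349 in RNAi. The other member in that host, F17C11.14, was at 7.88 on average over the 7 groups against 814 for F17C11.15, so members of 1 host differed by far more than their lengths of 127 and 218 bases.

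The other members among the 10 highest were Y38F2AR.14, F46F11.12, C06A1.8, Y37E3.22, F25H2.15 and W08G11.6. Y38F2AR.14 in Y38F2AR.12 gave 1738, 1918 and 932 in Day 2 control and 850.1, 1195 and 789 in GFP-negative RNAi. It stood 1573 times above its host per length in Day 2 controls, whose exons averaged only 31.3 normalized reads there. F46F11.12, in the trafficking complex gene trpp-8, stood 25.3 times and W08G11.6, in W08G11.3, 19.1 times above its host per length. Over all 60 hosted members the median ratio was 0.439, with 22 above their host, so most gave fewer reads per base than the exons of the gene around them.

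**Figure D1:**
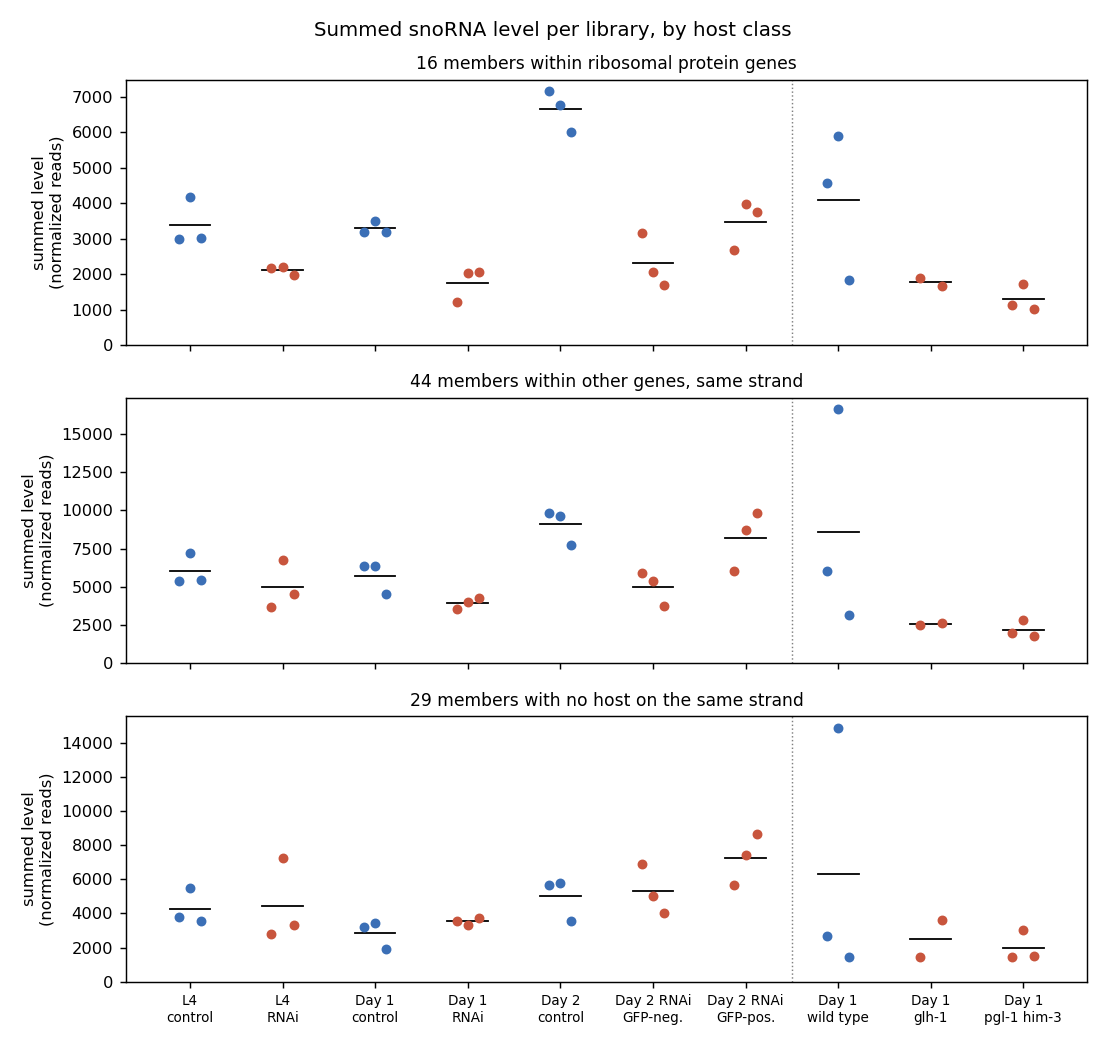
Summed level of the members in each library, in normalized reads, for members within ribosomal protein genes, within other genes and with no host on the same strand; points are libraries, lines are group means, blue marks control and wild type, red marks RNAi and mutants. In the top panel the RNAi libraries lie below every control library of their stage, and wild-type library b is far above the other wild-type libraries in the lower panels.

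Summed over the 16 members in ribosomal protein genes, levels were 2978, 4182 and 3007 normalized reads in L4 control and 2161, 2200.1 and 1969 in L4 RNAi. On Day 1 they were 3194, 3499.5 and 3180.1 in control and 1212, 2021 and 2049 in RNAi. On Day 2 they were 7177, 6782 and 6012 in control, 3148, 2058 and 1702 in GFP-negative and 2683, 3992 and 3760.1 in GFP-positive RNAi. At each stage no RNAi library overlapped its controls, and the Day 2 means were 6657 ± 592 (SD, n = 3), 2303 ± 753 and 3478 ± 698. The 44 members in other hosts separated on Day 1 (5736 ± 1059.9 in control, 3961 ± 355 in RNAi) and in Day 2 GFP-negative gonads (9084 ± 1147 in control, 5012 ± 1135 in RNAi) but overlapped at L4 and in GFP-positive gonads (8191 ± 1962). For the 29 members without host the groups overlapped on Day 1 (2862 ± 809 in control and 3535 ± 219.6 in RNAi), and on Day 2 they averaged 4999 ± 1252, 5305 ± 1451 and 7237 ± 1503, with overlap. Sums are led by the highest members, and they were made from the levels that chose the members, so no test was made on them.

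**Figure D2:**
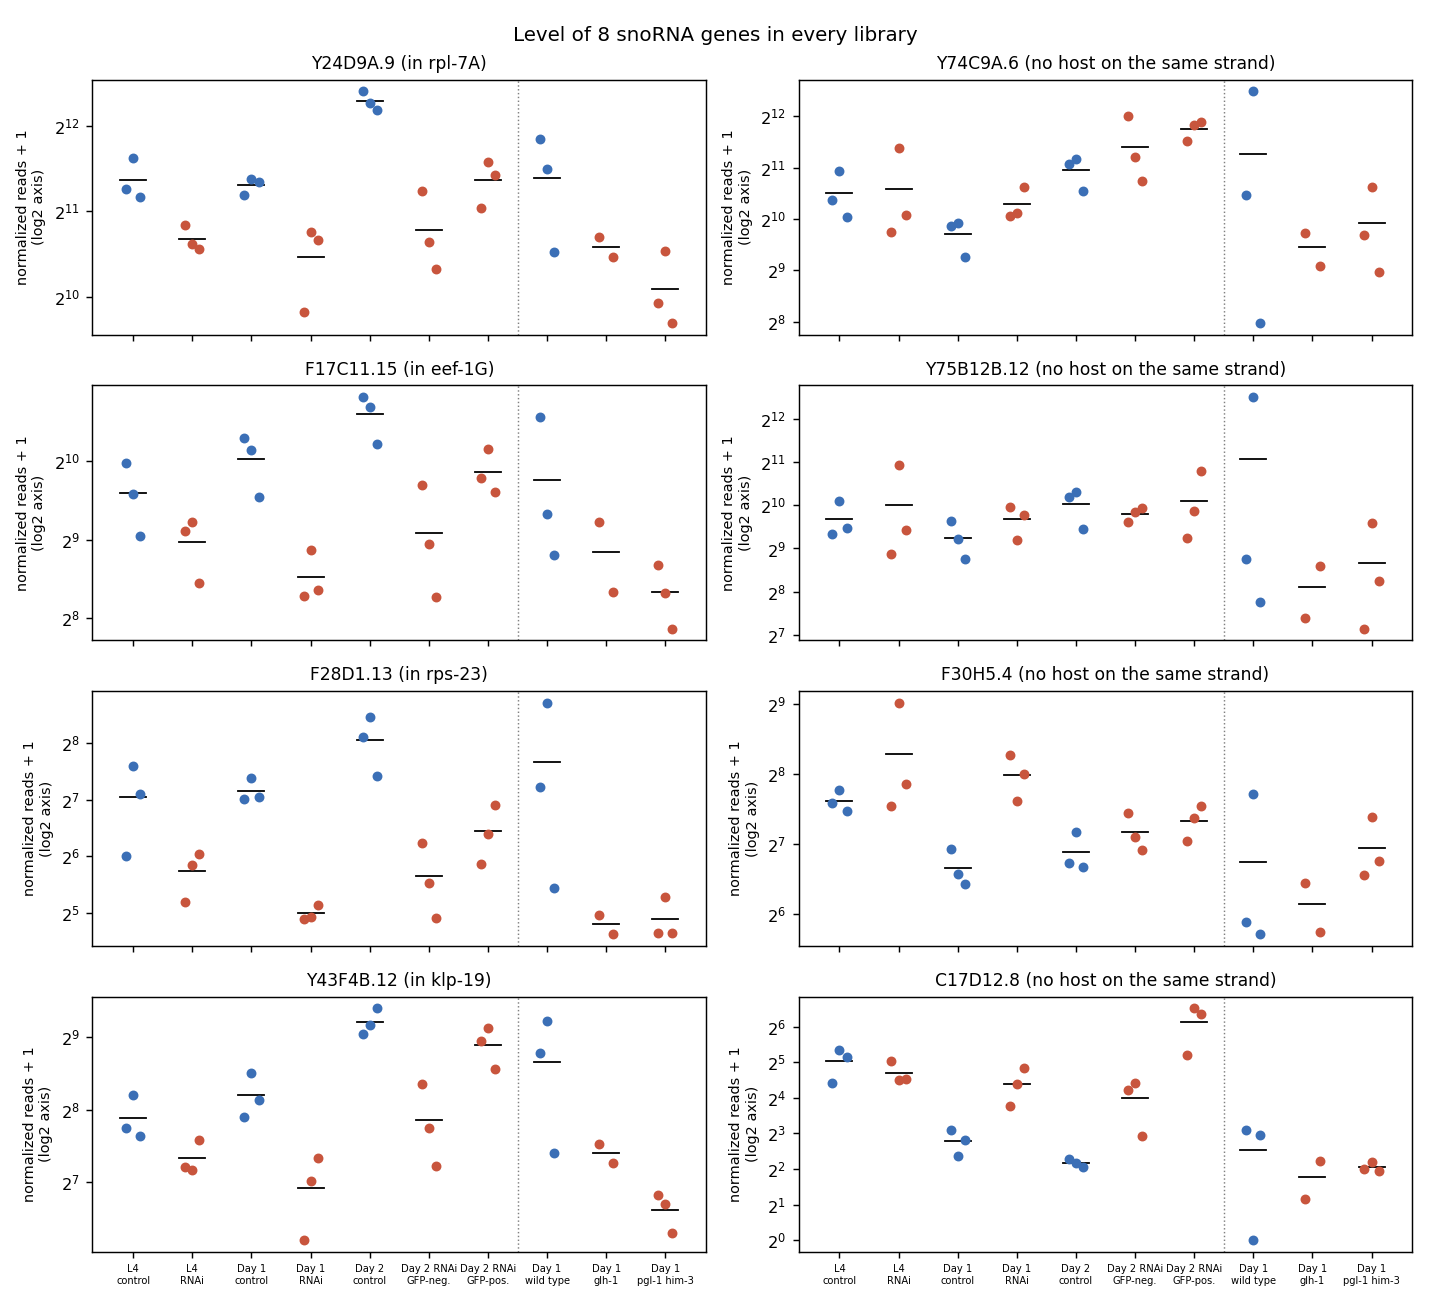
Level of 8 members in every library, in normalized reads plus 1 on a log2 axis; points are libraries, lines are group means, blue marks control and wild type, red marks RNAi and mutants, and the dotted line separates the mutant part, which was scaled apart. The members in rpl-7A, eef-1G and rps-23 sit lower in Day 1 and Day 2 RNAi than in controls, F30H5.4 sits higher in Day 1 RNAi, and C17D12.8 is highest in Day 2 GFP-positive gonads.

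At L4 no member passed an adjusted p of 0.05 in the authors' deposited table, of 68 with a value, where 0.201 percent of all 10924 genes did, 0.119 percent higher and 0.0824 percent lower. The limma voom fit on the worked-out reads also gave 0 members, where 7 of all 23484 genes passed and 979 had an unadjusted p below 0.05. Of the members, 3 had such an unadjusted p. Those were C08D8.3 (voom log2 difference -2.13, SE 0.75), T27A3.9 (1.69, SE 0.74) and F25H2.14 in tct-1 (-0.69, SE 0.32), all with an adjusted p of 0.864. C08D8.3 gave 5.06, 2.67 and 6.95 normalized reads in control and 0, 3.46 and 0 in RNAi, a matter of a few reads.

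On Day 1, RNAi gonads had lower levels of 7 snoRNAs in ribosomal protein genes and of some in eef-1G, tct-1, klp-19 and cdc-48.1, and higher levels of F30H5.4. Of 78 members with a value, 13 fell and 2 rose in the authors' deposited table, while 29.8 percent of all genes were called, 10.4 percent lower and 19.4 percent higher. The share of members called lower was 16.7 percent. By class, 7 of 12 tested members in ribosomal protein genes fell, 6 of 39 in other hosts and 0 of 27 without host. The deposited median log2 change was -0.24 over the tested members and 0.26 over all tested genes. The somatic markers summed to 7904 to 17130 normalized reads in Day 1 control and 19444 to 70958 in Day 1 RNAi, and their part in the result was not tested.

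The member with the largest deposited fall on Day 1 was F28D1.13 (130 bases) in rps-23, a small-subunit ribosomal protein gene. It gave 127, 166 and 130.5 normalized reads in control and 28.7, 29.6 and 34.3 in RNAi, and in the authors' deposited table the log2 change was -2.18 (adjusted p = 1.33e-08). F17C11.15 changed by -1.55 (adjusted p = 1.10e-09) in the authors' deposited table. Y37E3.22, in Y37E3.8, gave 545, 489.9 and 325 in control and 165, 231 and 178 in RNAi, and Y43F4B.12, in the chromosome segregation kinesin gene klp-19, gave 238, 362 and 279 and 72.7, 128 and 161. Neither overlapped between the groups. In the authors' deposited table they changed by -1.29 and -1.35, F25H2.14 in tct-1 (a homologue of translationally controlled tumor protein) by -0.95, and C06A1.9 in cdc-48.1 (an AAA ATPase) by -0.96, with adjusted p of 5.01e-06, 6.75e-05, 0.00129 and 0.00297.

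F30H5.4 (86 bases, no host) rose. Its libraries gave 121, 94.1 and 85.0 normalized reads in Day 1 control and 309, 194 and 254 in Day 1 RNAi, with no overlap, and the log2 change in the authors' deposited table was 1.20 (adjusted p = 0.000213). C51F7.3, in frm-7, also rose, from 2.93, 2.52 and 3.03 to 18.9, 11.9 and 20.6, with a change of 1.81 in the authors' deposited table (adjusted p = 0.0434). With limma voom on the scale of the averages the Day 1 split was 6 members higher and 8 lower, beside 16.4 percent of all 23484 genes called, 2872 higher and 987 lower. The member count fell from 14 to between 3 and 8 when RNAi library a, b or c or control library a or b was left out. All 16 members in ribosomal protein genes had a negative voom difference with every library in. Of these 16, 4 passed in the voom fit, 0 without control library b, 1 without RNAi library a or b and 2 without control library a, so the count of 7 in the authors' deposited table was not kept there.

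Whether the RNAi effect changed with age was tested as a difference of differences in the voom fit. From L4 to Day 1 it passed for 1 of 89 members, H06I04.9, where 4.58 percent of all genes passed, 4.44 percent upward and 0.141 percent downward. That call was lost in fits without certain single libraries, as given below. From Day 1 to Day 2 GFP-negative the difference passed for 0 members, where 0.00426 percent of all genes passed. An unadjusted p below 0.05 was found for 1 member and for 1605 of all 23484 genes. The larger count of calls on Day 2 than on Day 1 does not show a difference between the days.

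**Figure D3:**
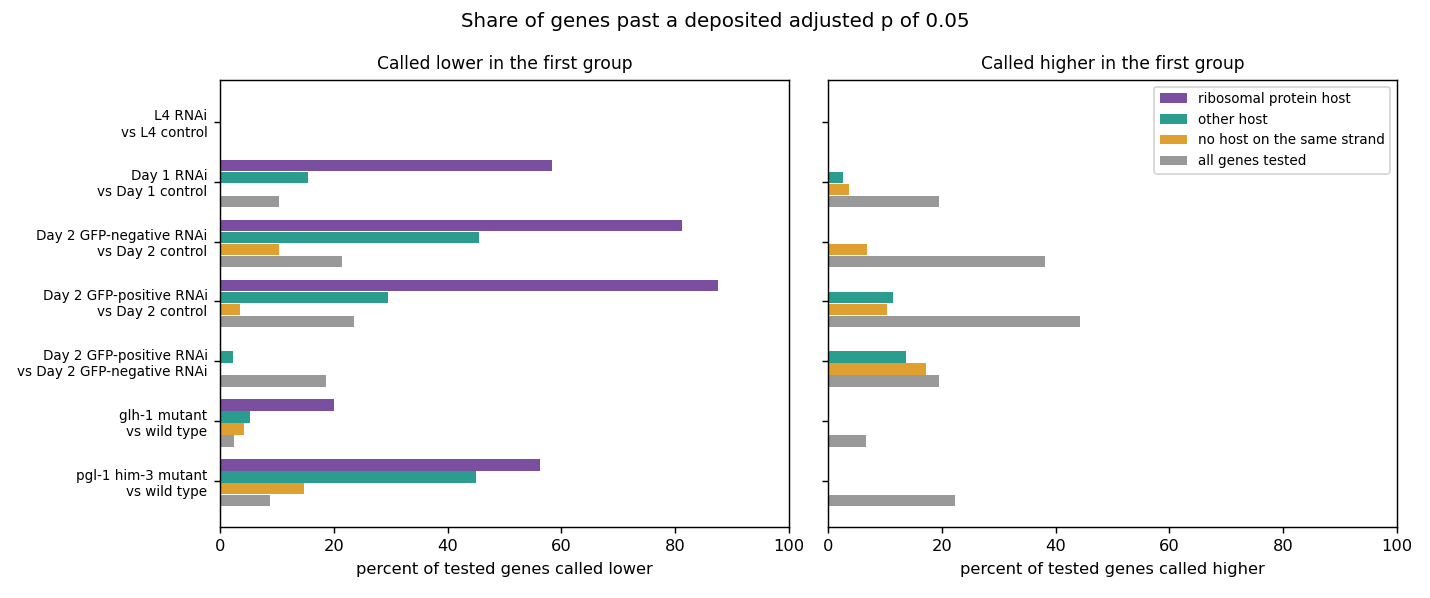
Percent of tested genes past an adjusted p of 0.05 in the authors' deposited table, called lower (left) or higher (right) in the first group named, for members by host class and for all genes tested. Members in ribosomal protein genes have the longest bars on the left for RNAi against control on Day 1 and Day 2 and for both mutants, and no members are called higher in the mutants.

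On Day 2 most snoRNAs of ribosomal protein genes were called lower in the authors' deposited table, in gonads with and without GFP. In GFP-negative gonads 36 of 89 members fell and 2 rose in the authors' deposited table, against 59.7 percent of all genes called, 21.5 percent lower and 38.2 percent higher. The members called lower were 40.4 percent. By class, 13 of 16 in ribosomal protein genes fell, 20 of 44 in other hosts and 3 of 29 without host, and the median deposited log2 changes were -1.65, -0.69 and -0.14, beside 1.30 over all tested genes. The somatic markers summed to 6819 to 10440 normalized reads in Day 2 control, 35508 to 46823 in GFP-negative and 51478 to 66430 in GFP-positive RNAi, and their part was not tested. The voom split was 3 higher and 27 lower, with 14 of 16 lower in ribosomal protein genes. The voom fit called 46.0 percent of all 23484 genes here, 7693 higher and 3110 lower.

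The member with the smallest adjusted p in GFP-negative gonads was C16A3.11 in rps-13. It gave 358, 335 and 328 normalized reads in Day 2 control and 148, 98.0 and 75.4 in GFP-negative RNAi, and in the authors' deposited table it changed by -1.84 (adjusted p = 1.26e-15). F28D1.13 gave 274, 348 and 169 and 74.1, 45.2 and 29.3, a change of -2.56 in the authors' deposited table (adjusted p = 1.21e-14). Neither overlapped its controls. The ribosomal protein gene members F54E7.10 (rps-12), D1007.20 (rpl-24.1) and K11H12.12 (rpl-15) changed by -1.55, -1.98 and -1.79 in the authors' deposited table, with adjusted p of 1.55e-12, 4.94e-10 and 1.67e-08. Y37E3.22 changed by -1.45 (adjusted p = 6.23e-13) and Y43F4B.12 by -1.53 (adjusted p = 1.27e-09) in the authors' deposited table. The 2 that rose were C17D12.8 (1.82, adjusted p = 0.00211) and smy-3 (2.76, adjusted p = 0.00685) in the authors' deposited table. The smy-3 values were 0.424, 0.996 and 0 in control and 5.15, 7.16 and 2.93 in RNAi, and smy-3 entered the members through this group alone.

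In GFP-positive gonads 28 of 89 members fell and 8 rose in the authors' deposited table, while 67.8 percent of all genes were called, 23.5 percent lower and 44.3 percent higher. Members lower were 31.5 percent. In ribosomal protein genes 14 of 16 fell, in other hosts 13 of 44 fell and 5 rose, and without host 1 fell and 3 rose. B0393.10 in fbxl-2 and Y62F5A.11 in mdt-8 entered the members through GFP-positive gonads alone, so their higher level there shows only the rule. The median deposited log2 change was -0.52 over the members and 2.08 over all tested genes. These deposited changes lie below the ratio of the deposited averages by a near-constant amount, a median of -0.46 on the log2 scale over 4048 genes with at least 100 normalized reads in both groups, -0.19 in the GFP-negative comparison and -0.25 between the GFP groups. On the scale of the averages, limma voom gave 14 members higher and 20 lower, of which 0 and 12 lay in ribosomal protein genes and 9 and 0 had no host. The direction of single members without host in GFP-positive gonads thus depends on the scale, and all 16 in ribosomal protein genes were below control on both. Of these 16, 7 passed in the voom fit without GFP-positive library a, and 11 or 12 without any other single library of these groups. The voom fit called 62.3 percent of all 23484 genes here, 10905 higher and 3729 lower.

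C17D12.8 (131 bases), which lies opposite to pcmd-1, had the largest rise. It gave 3.82, 3.48 and 3.14 normalized reads in Day 2 control, 17.5, 20.4 and 6.59 in GFP-negative and 36.2, 90.8 and 81.1 in GFP-positive RNAi. The libraries of the 3 groups did not overlap. In L4 gonads it was at 20.2, 40.1 and 34.7 in control and 31.6, 21.9 and 22.2 in RNAi, all above the Day 2 controls. In the authors' deposited table the GFP-positive change was 3.78 (adjusted p = 3.46e-15). F25H2.14 in tct-1, C16A3.11, F28D1.13, F17C11.15, D2096.14 (in nap-1, a nucleosome assembly protein gene) and K11H12.12 fell in the same comparison, by 1.17, 1.41, 2.06, 1.20, 1.41 and 1.43 on the log2 scale in the authors' deposited table.

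Between the GFP groups, with the same RNAi in both, 11 members were higher and 1 lower in GFP-positive gonads, of 87 with a value in the authors' deposited table. This was 13.8 percent of members called, against 38 percent of all genes, 19.4 percent higher and 18.6 percent lower. Members of 2 hosts moved in pairs. K07C11.12 and K07C11.11, both in air-1, the Aurora A kinase gene, gave 67.4, 64.4 and 31.5 and 28.3, 29.7 and 19.8 normalized reads in GFP-negative libraries. In GFP-positive libraries they gave 103, 148 and 139 and 43.2, 81.7 and 74.2, with no overlap. In the authors' deposited table they rose by 0.95 and 1.03 (adjusted p = 0.000737 and 0.00189). Y43F4B.12 and Y43F4B.11, both in klp-19, rose by 0.76 and 0.94 in the authors' deposited table (adjusted p = 0.00271 and 0.00415).

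A trio of like length without host, F25H2.15 (178 bases), Y67A10A.14 (174) and F59C6.15 (173), also rose together. F59C6.15 gave 344, 269 and 211 normalized reads in GFP-negative and 441, 561 and 510.3 in GFP-positive libraries, and Y67A10A.14 gave 233, 194 and 167 and 336, 427 and 358. Neither overlapped. Their changes in the authors' deposited table were 0.60 (adjusted p = 0.00352) and 0.65 (adjusted p = 0.000797), and F25H2.15 changed by 0.60 (adjusted p = 0.00745). C17D12.8 rose by 1.79 (adjusted p = 4.48e-06) and W01C9.6, from 19, 15.4 and 9.51 to 41.4, 31.4 and 51.3 normalized reads, also rose (adjusted p = 0.00281) in the authors' deposited table. The snRNA share of reads was 0.240, 0.627 and 0.568 percent in the GFP-positive libraries and 0.247, 0.241 and 0.157 percent in the GFP-negative ones, and its part in these differences was not tested. In the voom fit 12 members were higher, beside 20.8 percent of all 23484 genes called, 3455 higher and 1438 lower. The member count was 7 without GFP-negative library b and 5 without GFP-negative library c.

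In control gonads 1 member, Y24D9A.9, passed as higher on Day 2 than on Day 1. The summed level was 13670.0 ± 2768 normalized reads (SD, n = 3) at L4, 11889 ± 1974 on Day 1 and 20739.5 ± 2963 on Day 2, with no overlap between the 2 adult days, a description led by the highest members. The summed snRNA level did the same, at 2372, 5230 and 2743 on Day 1 and 7425, 7775 and 7013 on Day 2. Libraries held 1221224 to 6146118 reads on genes on Day 1 and 6705977 to 9039174 on Day 2. The part of what snRNA and snoRNA share, and of depth, was not tested. Of the 89 members in the limma voom fit 76 were higher on Day 2, and the same count over all genes was not made. Only Y24D9A.9 passed (log2 difference 1.03, SE 0.16, adjusted p = 0.034), where 0.00852 percent of all genes did, 0.00426 percent in each direction. An unadjusted p below 0.05 was found for 26 members and for 3425 of all 23484 genes. Y24D9A.9 was itself the 1 gene called higher among all 23484 tested. No member passed once any 1 Day 1 control library, or Day 2 control library a, was left out, and 5 passed without Day 2 control library c. From L4 to Day 1 the voom fit called 4 members lower and 0 higher, against 20.9 percent of all genes called, 5.46 percent higher and 15.4 percent lower. These were D1054.17 in D1054.3 (-2.42, SE 0.71, adjusted p = 0.0189), D1046.6 in cfim-2 (-1.94, adjusted p = 0.0379), Y71F9AM.7 in cogc-3 (-1.76, adjusted p = 0.0396) and C17D12.8 (-2.15, adjusted p = 0.043). Of the somatic markers, unc-54 and rol-6 fell over the same interval, and vit-2 did not separate. Their values were 3078 to 4814 at L4 and 236 to 658 on Day 1 for unc-54, and 142 to 465 and 3.52 to 12.1 for rol-6. For vit-2 they were 2535 to 35708 and 7665 to 16459, and the part of these markers was not tested. On Day 2 unc-54 was at 193 to 222 and the somatic sum at 6819 to 10440, against 7904 to 17130 on Day 1. Y71F9AM.7 gave 75.8, 126 and 93.8 at L4 and 12.3, 62.2 and 45.5 on Day 1. None passed without L4 control library a or Day 1 control library a, and 2 passed without L4 control library b or c.

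The mutants were not used to choose the members. In pgl-1(ct131) him-3(e1147), 31 members fell and 0 rose of 83 with a value in the authors' deposited table, against 31.1 percent of all genes called, 8.84 percent lower and 22.3 percent higher. The members called lower were 37.3 percent. Somatic markers summed to 3429 to 5135 normalized reads in wild type, 5071 and 22509 in glh-1(gk100) and 11075.5 to 18541 in the double mutant, and their part was not tested. By class, 9 of 16 in ribosomal protein genes, 18 of 40 in other hosts and 4 of 27 without host fell. The median deposited log2 change was -1.47 over the members and 0.45 over all tested genes. The summed level was 13276, 37375 and 6461 normalized reads in wild type and 4510.3, 7566 and 4271 in the double mutant, so only wild-type libraries a and b lay above every mutant library, and library c lay within their range.

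F59C6.15 had the smallest adjusted p, with 126, 545 and 206 normalized reads in wild type and 36.4, 42.5 and 66.5 in the double mutant. The groups did not overlap, and in the authors' deposited table the change was -2.46 (adjusted p = 1.19e-06). Y43F4B.12 gave 439, 600.0 and 168 in wild type and 112, 103 and 77.8 in the double mutant, a change of -1.97 in the authors' deposited table (adjusted p = 4.56e-06). D1007.20 in rpl-24.1 gave 158, 234 and 49.3 and 34.4, 18.6 and 24.0, a change of -2.37 in the authors' deposited table (adjusted p = 6.21e-06). Neither overlapped. B0412.6 in rps-29 (-2.76, adjusted p = 7.47e-06), Y46G5A.40 in pisy-1 (-2.24, adjusted p = 1.09e-05), C06A1.9 and C06A1.8 in cdc-48.1 (-1.47 and -1.98) and R166.7 in mnk-1 (-2.41, adjusted p = 8.01e-05) fell in the authors' deposited table. The voom fit called 33 members lower, 28 of them among the 31, beside 32.5 percent of all 15203 genes called, 3639 higher and 1296 lower. Without wild-type library b it called 21 members, all among the 31, and without library a of the double mutant it called 17.

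In glh-1(gk100) 6 members fell and 0 rose of 77 with a value in the authors' deposited table, against 9.15 percent of all genes called, 2.47 percent lower and 6.68 percent higher. The members called were 7.79 percent. They were R166.7 (-2.12, adjusted p = 0.00254), B0412.7 and B0412.6 in rps-29 (-2.0 and -1.82), Y46G5A.40 (-1.52), K11H12.13 in rpl-15 (-1.98) and T04A8.17, without host (-1.56), in the authors' deposited table. R166.7 gave 63.4, 328 and 62.7 normalized reads in wild type and 19.9 and 25.5 in the mutant, with no overlap. K11H12.13 gave 11.9, 44.8 and 6.72 in wild type and 2.41 and 0 in the mutant. The voom fit called 1 member, beside 6.88 percent of all 15203 genes, 815 higher and 231 lower. It called 2 members without wild-type library a, 0 without wild-type library b and 17 without wild-type library c, so the count rests on single libraries. The 2 mutant libraries differed most in the trio without host, where F59C6.15 gave 68.8 and 1490.2, F25H2.15 44.7 and 773 and Y67A10A.14 11.5 and 169, each higher in library b. Both mutants were set against the same wild-type libraries, so their changes are not independent of each other.

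**Figure D4:**
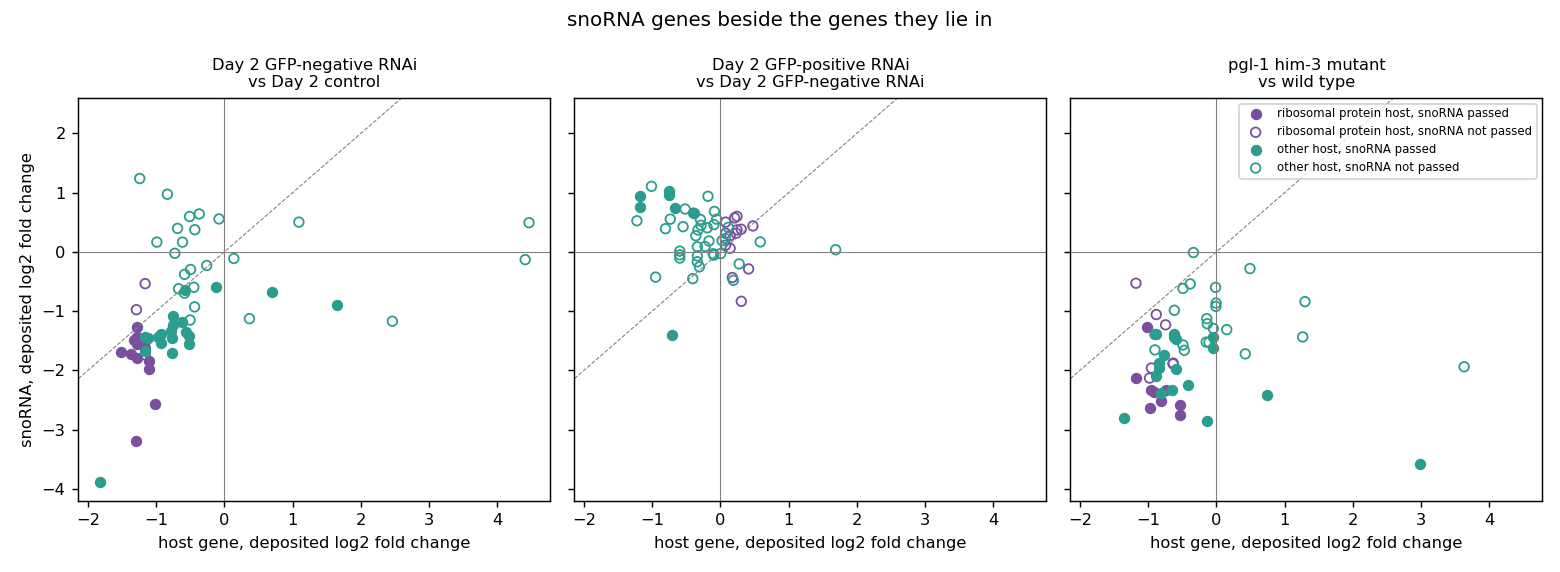
Log2 fold change of each hosted member (vertical) against that of its host (horizontal) in the authors' deposited table, for 3 comparisons; filled points passed an adjusted p of 0.05 for the snoRNA, and the dashed line marks equal change. In the left panel most filled points lie in the lower left, in the middle panel filled points lie at the upper left with 1 at the lower left, and in the right panel nearly all points lie below the dashed line.

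Hosts were compared with the snoRNAs inside them. In Day 2 GFP-negative gonads 33 hosted members fell in the authors' deposited table, and 30 of these lay in hosts that fell, 2 in hosts that rose and 1 in a host that was not called. Hosts fell in 49 of all 60 pairs there, so most members lay in a fallen host whether they fell or not. On Day 1 all 7 fallen members in ribosomal protein genes lay in hosts that fell, as 10 of the 12 such pairs did. For rpl-7A the averages were 6769 normalized reads in Day 1 control and 3496 in RNAi, and 7050.0 in Day 2 control and 2794 in GFP-negative RNAi. Its log2 values were -1.01 and -1.52 in the authors' deposited table (adjusted p = 6.63e-13 and 1.83e-11). Reads of unspliced host and of snoRNA cannot be separated, so the pairs are not independent. Of the 60 members in the GFP-negative comparison, 43 had a lower log2 change than their host.

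Some pairs went apart. In Day 2 GFP-negative gonads Y38F2AR.14 fell by 0.89 in the authors' deposited table while its host Y38F2AR.12 rose by 1.66 (adjusted p = 2.47e-12), and R166.7 fell by 0.68 while mnk-1, a kinase gene, rose by 0.70 (adjusted p = 1.28e-06). The Y38F2AR.14 libraries of control and GFP-negative RNAi overlapped, as given above. The deposited changes of this comparison also carry the median gap of -0.19 to the log2 ratio of averages. In the double mutant R166.7 fell while mnk-1 rose by 0.75 in the authors' deposited table (adjusted p = 0.00625). Between the GFP groups the 6 hosted members that rose all lay in hosts that fell. The air-1 averages were 538 normalized reads without GFP and 379 with GFP, and klp-19 averages were 2508 and 1309. In the authors' deposited table air-1 changed by -0.75 (adjusted p = 4.28e-06), klp-19 by -1.18 (adjusted p = 5.82e-15), cdc-48.1 by -0.39 (adjusted p = 0.00347) and ril-2 by -0.66 (adjusted p = 2.04e-06). On the scale of the averages these 4 log2 ratios were -0.51, -0.94, -0.14 and -0.41, and the cdc-48.1 libraries of the GFP groups overlapped. In pgl-1(ct131) him-3(e1147), 54 of 56 members with a value for both had a lower change than their host, with medians of -1.63 for members and -0.59 for hosts. Of the 27 hosted members that fell there, 19 lay in hosts that fell, and hosts fell in 30 of the 56 pairs. Wild-type library b, which stands apart, enters all these changes of the double mutant. In the voom fit the median log2 difference of the 16 members in ribosomal protein genes was -2.47, and -1.85 without that library.

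Transcripts for proteins of the snoRNA particles were lower in the same gonads. All 4 box C/D core protein genes, fib-1 (the methyltransferase fibrillarin), nol-56, nol-58 and M28.5, fell in Day 2 GFP-negative and GFP-positive RNAi in the authors' deposited table, and 3 fell on Day 1. The fall of nol-58 without GFP rests on the scale, since it gave 1713, 1806 and 1761 normalized reads in Day 2 control and 1617, 1637 and 1734 in GFP-negative RNAi. Those libraries overlapped, with a log2 ratio of averages of -0.08 against -0.27 in the authors' deposited table. Transcripts of fib-1 gave 2223, 2388 and 1996 normalized reads in Day 2 control, 1487, 1291 and 1662 in GFP-negative and 1193, 1244 and 1223 in GFP-positive RNAi. They changed by -0.76 (adjusted p = 2.15e-06) and -1.32 (adjusted p = 1.40e-24) in the authors' deposited table, and by -1.09 (adjusted p = 0.0014) in the double mutant. Of the 4 box H/ACA genes, 2 fell without and 3 with GFP, among them K01G5.5, the dyskerin pseudouridine synthase, at -0.45 and -0.74 in the authors' deposited table (adjusted p = 0.00103 and 8.61e-08), and 0 of 3 tested fell on Day 1. On the scale of the averages the K01G5.5 log2 ratios were -0.26 and -0.28, so the GFP groups hardly differed there. Of 23 listed snoRNA and ribosomal RNA processing genes found in the table, 8 fell on Day 1, 19 in GFP-negative gonads and 22 in those with GFP, with 0, 0 and 1 rising, and the deposited medians were -0.37, -0.58 and -0.89 beside 0.26, 1.30 and 2.08 over all tested genes. On the scale of the averages 18, 21 and 22 of the 23 were below control. At L4 and in glh-1(gk100) none of these 3 lists had a gene past the threshold in the authors' deposited table, and in the double mutant 2, 1 and 7 fell. The box C/D gene nol-56 is itself a host, and its members K07C5.10 and K07C5.11 were both called lower in Day 2 GFP-negative gonads.

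Over the 10 group averages, the genes most like the summed member level (Pearson's r of log2 averages, given as a description, among 14869 genes) were metl-18 (0.95), the noncoding RNA gene C05D2.15 (0.94), coq-4 of ubiquinone synthesis (0.94), the snRNA gene ZK897.4 (0.93) and znf-622 (0.92). C05D2.15 averaged 215 normalized reads in Day 2 control, 119 in GFP-negative RNAi, 130.4 in wild type and 31.3 in the double mutant. The groups share libraries with the members, and the RNAi and mutant parts were scaled apart.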

How the data were processed

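RNA was sequenced from pooled dissected gonads in 29 libraries of 10 groups, as total RNA depleted of ribosomal RNA with a kit that does not mark strand, per the labels' protocols. The submitters' processing notes list TopHat2 and DESeq2 among the tools of the authors. Versions, the read counter and the genome build are not stated in the labels or file headers. The members and lists were chosen with earlier results of these data known. Named members were the 10 highest, up to 8 per comparison with the smallest adjusted p (the 3 with the smallest p where none passed), those next to the minimum, and up to 5 that passed in 1 group. C51F7.3, smy-3, F17C11.14, H06I04.9, K07C5.10 and K07C5.11 were named after their values were seen.

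Per the file headers, the deposited table gives signal values, which are normalized read averages per group, and for 7 comparisons a log2 fold change, a BH-adjusted p-value and a mean expression score, all computed by the authors. The deposited log2 fold changes of low genes are smaller than the ratio of averages. In the mutants a gap was also seen in 13 members with at least 100 normalized reads in both groups. Their deposited values lay above the log2 ratio of averages by medians of 0.45 in glh-1(gk100) and 0.24 in the double mutant. Over all genes at that level the medians were 0.0106 and -0.000345. Whole reads per library were worked out from the averages by search, and in 100 percent of the genes compared they gave the deposited mean expression to a relative 1e-06. Comparisons without deposited values were fitted with limma 3.58.1 voom in R 4.3.3 on these reads with the authors' scale factors, RNAi and mutant parts apart, over genes that averaged 1 normalized read or more in some group, and the same fit served as an alternative for the other 7. On simulated data for Day 1 RNAi, of 17019 genes, 3.23 percent of its calls were false and 44 percent of 2-fold and 76 percent of 4-fold changes were found. For Day 1 against L4 control, over 17014 genes, 4.44 percent of calls were false, and 19 and 67 percent of these changes were found. For Day 2 against Day 1 control, over 17012 genes, 6.20 percent were false, and 50 and 71 percent were found. The labels do not say that libraries came from separate cultures, so p-values measure the spread between these samples. Names, lengths, chromosomes and hosts of all 89 members came from WBcel235 release 115. Its gene and exon coordinates set the hosts, the lengths and the overlaps with other genes and exons. Precision is limited at low levels, where a member holds a few reads per library.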

Additional observations from a re-analysis of the deposited data

Results flagged for a closer look

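The RNAi effect on H06I04.9, a 77-base member within ubl-1, differed between Day 1 and L4. Its libraries gave 3.79, 0 and 3.47 normalized reads in L4 control and 9.47, 6.91 and 2.22 in L4 RNAi, and 4.1, 5.88 and 3.03 in Day 1 control against 0 in all 3 Day 1 RNAi libraries. The difference of the 2 effects, Day 1 minus L4, was -3.73 on the log2 scale (SE 0.99, limma voom adjusted p = 0.0324), where 4.58 percent of all genes passed the same test. The call rests on single libraries. No member passed without RNAi library a or b of Day 1, control library a or b of Day 1, RNAi library b of L4, or control library a or b of L4. The values amount to a few reads per library, and a fitted change against libraries at 0 depends on the fit. For Day 2 GFP-negative minus Day 1 no member passed (limma voom), with 1 at an unadjusted p below 0.05, as had 1605 of all 23484 genes. Groups held 2 or 3 libraries, too few for a search for single libraries that lie apart.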

How the results depend on the processing

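No paired analysis was possible because the columns carry no replicate numbers. An adjusted p of 0.01 left 9 members called on Day 1 in place of 15, 3 in glh-1(gk100) in place of 6, and 0 for Day 1 against L4 control and 0 for Day 2 against Day 1 control. With voom in place of the deposited values glh-1(gk100) had 1. Without a filter on low values voom called 9 on Day 1, 13 in glh-1(gk100), 2 for Day 1 against L4 control and 0 for Day 2 against Day 1 control. Without libraries c of both Day 1 groups, an alternative chosen after seeing the data, the last pair gave 7 and 0. The cause was not tested. Leaving out 1 library gave 0 to 1 calls at L4, 3 to 17 on Day 1, 23 to 31 in GFP-negative, 25 to 31 in GFP-positive, 5 to 18 between the GFP groups, 0 to 17 in glh-1(gk100), 17 to 41 in the double mutant, 0 to 6 for Day 1 against L4 control and 0 to 5 for Day 2 against Day 1 control, in voom fits that let a group of 1 vary like the others. A minimum of 10 and a mean of at least 5 kept each count within 1.5 times, as did TMM scale factors against voom without them, except in glh-1(gk100), where voom went from 1 to 9. Leaving out Y24D9A.9 moved the log2 difference of the summed level in GFP-positive gonads from -0.15 to 0.04.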
